A study of Homo sapiens with 11 samples.

Results

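Ceramide is made and removed by a small set of enzymes, and 10 of their genes are described here: the ceramide synthases CERS2, CERS4, CERS5 and CERS6, the acid sphingomyelinase SMPD1, the ceramidases ASAH1, ACER2 and ACER3, the glucosylceramide synthase UGCG and the sphingosine kinase SPHK1. They were chosen by name, as rows present under these symbols in both count tables, and they are 10 of 26485 genes listed there. The choice was made with earlier results of these data known, so counts of members called describe these 10 genes only. The study treated Caki-1-SR cells, a sunitinib-resistant subline of the human clear cell renal cell carcinoma line Caki-1, with an optimised drug combination (ODC). ODC held Rapta-C at 2 µM, erlotinib at 1 µM, metformin at 1 µM and parthenolide at 5 µM. Poly(A) RNA was sequenced in 11 libraries, comprising 3 CTRL and 3 ODC libraries at 24 h and 2 CTRL and 3 ODC libraries at 2 h. CTRL cells received none of the 4 drugs and are called both untreated and sham-treated in the study, and both arms came from cells kept in 1 µM sunitinib. All libraries came from 1 clone of this line grown in culture, and the labels do not say whether replicates were separate cultures, so p-values measure only the spread between these libraries, which may be technical.

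Ceramide synthases join a fatty acyl chain to a sphingoid base, and each isoform prefers acyl chains of certain lengths. Sphingomyelinases release ceramide from sphingomyelin, ceramidases split it into sphingosine and a fatty acid, and UGCG uses it for glucosylceramide, the starting point of most glycosphingolipids. SPHK1 phosphorylates the sphingosine that ceramidases release, and the balance between ceramide and sphingosine 1-phosphate is widely studied in tumour cells because the former is linked to cell death and the latter to survival.

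Summed counts were 17785229 to 20882856 per library at 24 h and 25782895 to 31118349 at 2 h, and the members together took 0.0893 to 0.112% of them. A floor of 3 counts corresponded to 0.144 to 0.169 CPM, counts scaled to the size of a library, at 24 h and to 0.0964 to 0.116 CPM at 2 h. The renal epithelial marker PAX8 was at 436 to 860 CPM, with VIM, KRT8 and KRT18 also present at 306 CPM or more. Of the same marker list, CA9 had at most 1 count and PAX2 at most 4 counts in a library, and NDUFA4L2 was at 1.02 to 2.29 CPM. KRT19 was at or under the floor except in CTRL replicate 1 at 2 h (1.86 CPM, 48 counts). One library stood apart: CTRL replicate 1 at 2 h held 41.9 CPM of the fibroblast collagen COL3A1, against at most 0.193 CPM in any other library, and its 4 fibroblast markers (DCN, LUM, PDGFRB, COL3A1) summed to 50.8 CPM against 3.10 CPM in the other CTRL library. The members' log2 fold changes at 2 h are therefore also given without it, with 1 CTRL library left that is assumed to vary like the ODC libraries. At 24 h DCN, LUM and COL3A1 were at or under the floor in both arms, and PDGFRB alone made nearly all of the summed level, 6.56 to 22.1 CPM in CTRL and 20.2 to 47.5 CPM in ODC. The 8 markers of renal epithelium and clear cell carcinoma summed to 4736 to 5547 CPM in CTRL and 3701 to 4456 CPM in ODC at 24 h, without overlap. VIM made most of this sum, at 3194 to 3616 CPM in CTRL and 2437 to 2948 CPM in ODC. KRT8 was at 536 to 833 CPM in CTRL and 393 to 503 CPM in ODC, and KRT18 was likewise lower in every ODC library, whereas the PAX8 ranges overlapped at 436 to 668 and 549 to 860 CPM. The part of these marker differences in the members' values was not tested. In bulk RNA, fewer cells of a type and less RNA per cell cannot be told apart.

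RefSeq promoter windows of GRCh38.p14, from 250 bases before to 50 bases after an annotated start site, were in the table for 7 of the 10 members, the others being CERS2, CERS4 and ASAH1. Of these 7, the windows of ACER2 and SMPD1 are shown because these genes had the largest differences at 24 h among members with a window, and those of ACER3 and SPHK1 because these genes differed at 2 h. Capitals mark a match to the antioxidant response element core TGACNNNGC, searched on both strands.
ACER2 (chr9:19408759-19409058, plus strand): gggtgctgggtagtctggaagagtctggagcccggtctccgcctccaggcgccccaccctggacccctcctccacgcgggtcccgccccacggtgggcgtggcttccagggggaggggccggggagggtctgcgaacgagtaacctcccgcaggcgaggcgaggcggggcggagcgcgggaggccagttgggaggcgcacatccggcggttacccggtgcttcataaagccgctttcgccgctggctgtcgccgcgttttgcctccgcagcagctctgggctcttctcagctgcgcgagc
SMPD1 (chr11:6390224-6390523, plus strand): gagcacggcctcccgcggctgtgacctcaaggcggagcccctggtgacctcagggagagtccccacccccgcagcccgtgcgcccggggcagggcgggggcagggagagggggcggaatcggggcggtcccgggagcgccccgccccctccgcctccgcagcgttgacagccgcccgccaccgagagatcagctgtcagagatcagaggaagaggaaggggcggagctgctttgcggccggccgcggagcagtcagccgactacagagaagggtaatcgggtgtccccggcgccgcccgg
ACER3 (chr11:76860668-76860967, plus strand): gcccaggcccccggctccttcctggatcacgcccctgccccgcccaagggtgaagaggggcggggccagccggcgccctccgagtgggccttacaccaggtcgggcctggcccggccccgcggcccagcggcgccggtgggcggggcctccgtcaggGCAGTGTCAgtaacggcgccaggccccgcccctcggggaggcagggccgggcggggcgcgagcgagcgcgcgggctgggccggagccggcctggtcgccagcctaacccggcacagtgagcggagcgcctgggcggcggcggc
SPHK1 (chr17:76382954-76383253, plus strand): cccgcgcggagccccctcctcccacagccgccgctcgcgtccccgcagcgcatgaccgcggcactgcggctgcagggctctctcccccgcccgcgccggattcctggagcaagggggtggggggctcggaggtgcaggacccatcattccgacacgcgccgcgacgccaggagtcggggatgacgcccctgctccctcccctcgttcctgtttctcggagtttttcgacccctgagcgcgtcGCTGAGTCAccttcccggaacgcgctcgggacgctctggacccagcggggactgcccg
ACER3 had 1 match, on the minus strand, whose first base lay at position -93 relative to the start site. SPHK1 had 1 match, also on the minus strand, at position -8, and the same letters hold an AP-1 site (TGACTCA, either strand) that overlaps the match. ACER2 and SMPD1 had no match to these motifs or to the E-box CACGTG, and neither had the other 3 members with a window. The core occurred in 13.3% of 35116 promoter windows, the AP-1 site in 4.95% and the E-box in 7.26%. The motifs were chosen with the expression results known, and a match describes letters in the window only.

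Levels in the libraries are given as CPM scaled by TMM, which evens out differences in make-up between libraries of a time point. Levels of different genes were set side by side as CPM per kilobase of annotated exon, since counts rise with transcript length. In the CTRL libraries at 24 h CERS2 was highest at 63.3 ± 9.00 CPM per kb (SD, n = 3), and UGCG at 60.9 ± 5.22 (SD, n = 3) overlapped it. SPHK1 followed at 25.6 ± 4.45 CPM per kb, then CERS6 at 10.4 ± 1.71, SMPD1 at 7.40 ± 0.881, CERS5 at 5.06 ± 0.435, ASAH1 at 3.43 ± 0.0610 and ACER3 at 1.44 ± 0.220 (SD, n = 3 each). ACER2 at 0.852 ± 0.153 and CERS4 at 0.190 ± 0.0357 CPM per kb were the lowest of the members, and from UGCG down no neighbours in this order overlapped. The order of the members from CERS6 to ASAH1 depended on the length used: with the longest transcript in place of all exons, CERS5 stood above CERS6 and ASAH1 above SMPD1. The closeness of CERS2 and UGCG depended on it too, since their means were then 115.5 and 70.2 CPM per kb.

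**Figure D1:**
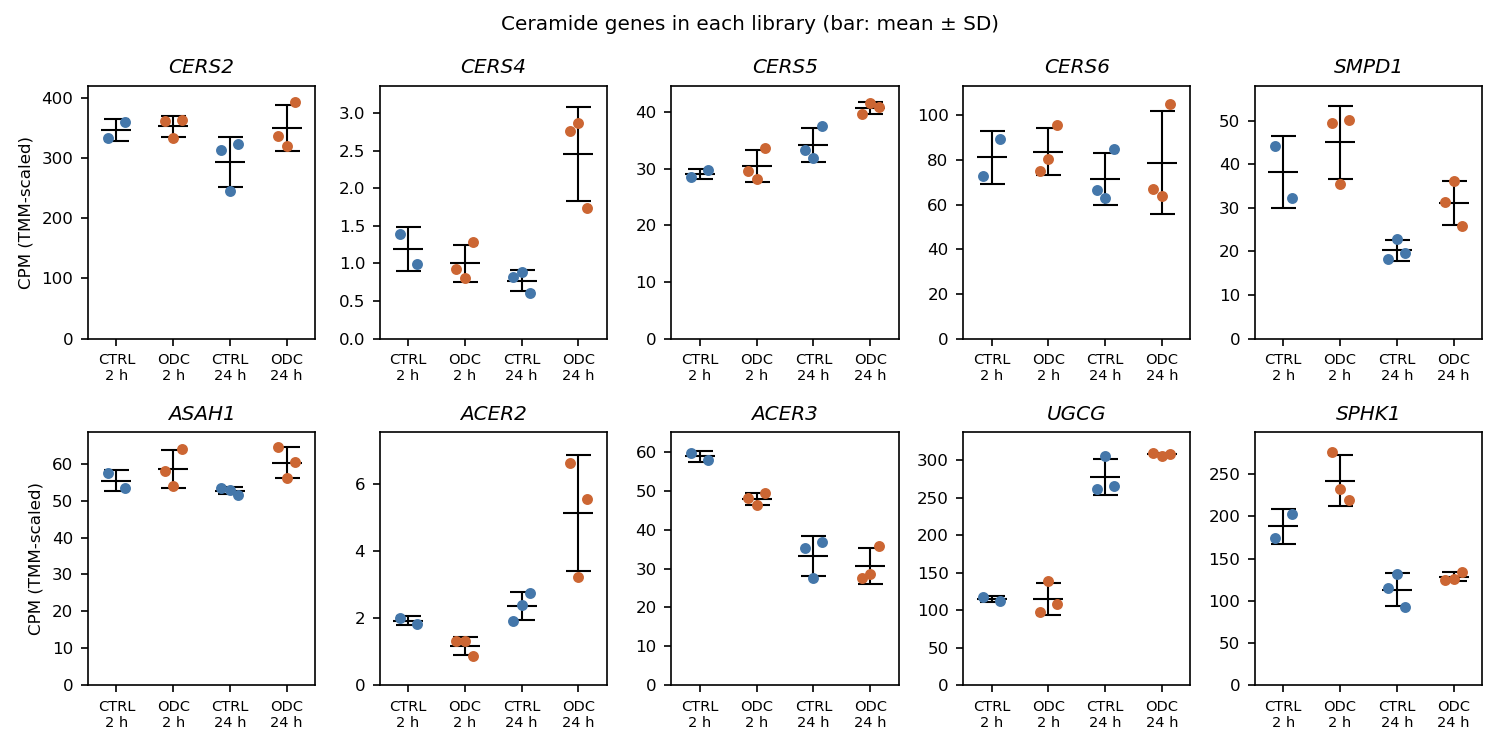
CPM (TMM-scaled within each time point, vertical axes from 0) of the 10 members in every library, CTRL in blue and ODC in orange, with bars for the mean ± SD (n = 2 for CTRL at 2 h, 3 elsewhere). CERS4, SMPD1 and ACER2, and by smaller folds CERS5, ASAH1 and UGCG, lie higher in all 3 ODC libraries at 24 h than in any CTRL library of that time. At 2 h ACER3 and ACER2 lie lower in all 3 ODC libraries and SPHK1 lies higher.

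At 24 h the question was which ceramide genes differed after a day of ODC. CERS4, SMPD1 and ACER2 stood higher in ODC in every library, at 3.15-fold, 1.54-fold and 2.19-fold the CTRL level. CERS5, ASAH1 and UGCG also stood higher in every ODC library, at 1.19-fold, 1.15-fold and 1.11-fold. Genes for making ceramide (CERS4, CERS5, SMPD1) and genes for removing or using it (ACER2, ASAH1, UGCG) were thus higher in the same libraries. None of the 10 members passed an adjusted p under 0.05 after Benjamini-Hochberg adjustment in edgeR's quasi-likelihood test, a call that 0.189% of the 12689 genes tested received, while 3 did (CERS4, SMPD1 and ACER2) in edgeR's likelihood ratio test, against 3.16% of all genes, and the same 3 in DESeq2, against 2.98%. At an unadjusted p under 0.05 there were 4 of 10 members (CERS4, CERS5, SMPD1 and ACER2) against 12.2% of all genes, and all 4 were higher in ODC against 7.20% of all genes called in that direction. An unadjusted p under 0.05 with at least a 2-fold difference was met by CERS4 and ACER2, against 2.35% of all genes. The median log2 fold change of the members was 0.22, that of all genes 0.00089, and 9 of the 10 members had a value above 0, as had 50.1% of all genes.

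CERS4 (chr19:8206736-8262421 on hg38, plus strand) makes ceramides of long and very long acyl chains. It was at 0.817, 0.887 and 0.609 CPM in CTRL replicates 1 to 3 and at 2.75, 2.86 and 1.73 CPM in ODC replicates 1 to 3. These values rest on 11 to 17 counts in CTRL and 36 to 56 counts in ODC. Every ODC library was higher than every CTRL library, and ODC replicate 3 was the lowest of its group. The log2 fold change was 1.65 ± 0.31 (SE; 95% interval 0.94 to 2.36), with an unadjusted p of 0.000667 and an adjusted p of 0.0982 after Benjamini-Hochberg adjustment over all genes tested in edgeR's quasi-likelihood test. Leaving out a library gave adjusted p from 0.0490 (without ODC replicate 3) to 0.379 (without CTRL replicate 1), with the other 4 omissions between 0.182 and 0.326. The adjusted p was 0.0271 in a joint fit of all 11 libraries, 0.00732 in DESeq2 and 0.000439 in edgeR's likelihood ratio test, so its place against the threshold depended on the model.

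The other synthases carried most of the ceramide synthase RNA. CERS2 (chr1:150960583-150975003), which makes very long chain ceramides, was at 313, 246 and 323 CPM in CTRL replicates 1 to 3 and at 336, 320 and 392 CPM in ODC replicates 1 to 3. The groups overlapped, since ODC replicate 2 lay below CTRL replicate 3, and the log2 fold change was 0.25 (95% interval -0.05 to 0.56, unadjusted p = 0.0943 in edgeR across all genes). CERS5 (chr12:50129289-50167533), which prefers shorter acyl chains than CERS2, was at 33.3, 31.8 and 37.5 CPM in CTRL and at 39.7, 41.7 and 40.9 CPM in ODC. The CERS5 groups did not overlap, but the difference was small, at a log2 fold change of 0.25 ± 0.11 (SE) with an unadjusted p of 0.0428 and an adjusted p of 0.385 after Benjamini-Hochberg adjustment in edgeR's quasi-likelihood test. Its unadjusted p was under 0.05 in 6 of 16 alternative analyses. CERS6 (chr2:168456249-168775134), with a chain preference like that of CERS5, was at 63.0 to 84.8 CPM in CTRL and 63.8 to 105.2 CPM in ODC, with ODC replicate 3 the highest of all 6 libraries, and its log2 fold change of 0.14 had a 95% interval from -0.34 to 0.62.

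The make-up of the synthase family was dominated by CERS2 in every group. Of the summed ceramide synthase level per exon length, CERS2 made up 80.1 ± 1.63% in CTRL and 80.7 ± 1.11% in ODC at 24 h (SD, n = 3 each). CERS6 made up 13.2 ± 1.25% and 12.1 ± 1.99%, and CERS5 6.45 ± 0.522% and 6.51 ± 0.780%, in CTRL and ODC (SD, n = 3 each), with overlapping groups. Which of these 2 was larger depended on the length used. Per kb of the longest transcript, CERS5 was at 11.4 and CERS6 at 10.4 CPM in CTRL, and at 13.6 and 11.5 CPM in ODC. The share of CERS4 was 0.247 ± 0.0774% in CTRL and 0.665 ± 0.231% in ODC (SD, n = 3 each), a difference of 0.417 percentage points without overlap. An exact two-sided permutation test gave p = 0.1 for CERS4, the smallest that 3 against 3 libraries allow, and 1.0 after Benjamini-Hochberg adjustment over 10 such tests. At 2 h the share of CERS4 was 0.325 ± 0.0976% in CTRL (SD, n = 2) and 0.264 ± 0.0511% in ODC (SD, n = 3), with overlap, and CERS2 made up 81.9 ± 0.841% and 81.8 ± 1.54%. Without CTRL replicate 1 of 2 h the CERS4 share in ODC minus CTRL was 0.0081 percentage points in place of -0.061, and that of CERS2 0.41 in place of -0.18. CERS3, an epidermal isoform, was listed at 0 in all 11 libraries, and CERS1, a neuronal isoform, had at most 4 counts in any library.

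**Figure D2:**
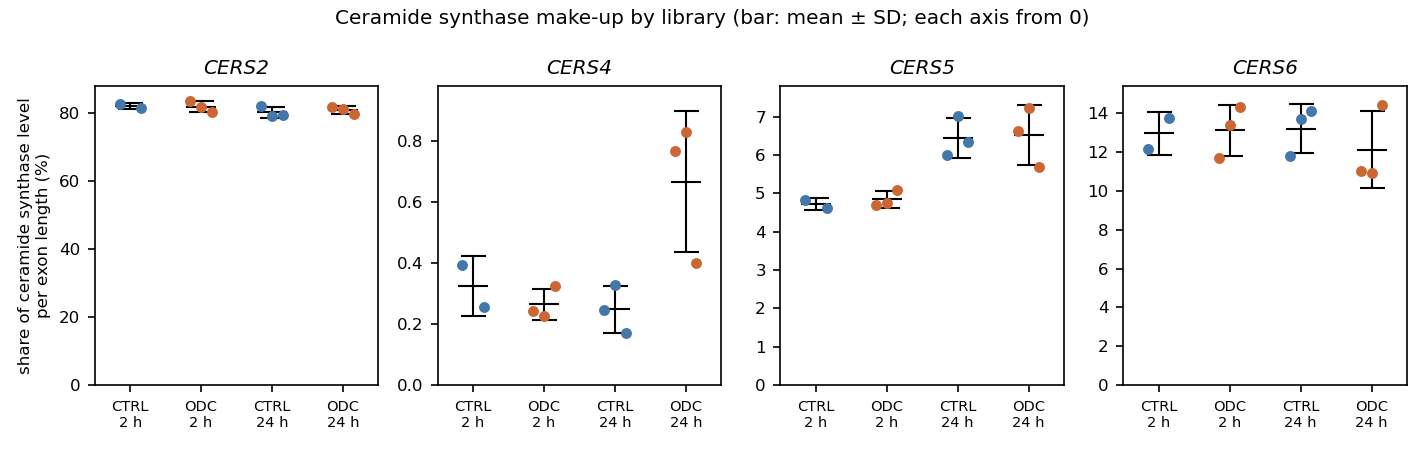
Share (%) of each ceramide synthase in the summed ceramide synthase level per exon length of a library, with CTRL in blue, ODC in orange and bars for the mean ± SD (n = 2 for CTRL at 2 h, 3 elsewhere). The axes differ between panels and start at 0: CERS2 holds 79.0 to 83.4% in every library, and the higher CERS4 share in ODC at 24 h stays under 1%.

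SMPD1 (chr11:6390440-6394998, plus strand) encodes the lysosomal acid sphingomyelinase. It was at 18.2, 22.9 and 19.8 CPM in CTRL replicates 1 to 3 and at 31.4, 36.2 and 25.9 CPM in ODC replicates 1 to 3 at 24 h. The lowest ODC library lay above the highest CTRL library. The log2 fold change was 0.62 ± 0.16 (SE; 95% interval 0.26 to 0.98), with an unadjusted p of 0.00430 and an adjusted p of 0.173 after Benjamini-Hochberg adjustment in edgeR's quasi-likelihood test. SMPD4, a neutral sphingomyelinase that is no member, had a log2 fold change of 0.05 with a 95% interval from -0.16 to 0.26. SMPD3, another neutral sphingomyelinase, had at most 1 count, and the intestinal alkaline enzyme ENPP7 was listed at 0 in every library.

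Of the ceramidases, ACER2 had the largest difference at 24 h. ACER2 (chr9:19409009-19452505, plus strand) encodes an alkaline ceramidase of the Golgi. It was at 1.92, 2.40 and 2.77 CPM in CTRL replicates 1 to 3 and at 6.64, 3.24 and 5.57 CPM in ODC replicates 1 to 3, from 40 to 50 and 60 to 135 counts. ODC replicate 2 was closest to CTRL, yet the groups did not overlap. The log2 fold change was 1.13 ± 0.30 (SE; 95% interval 0.44 to 1.82), with an unadjusted p of 0.00551 and an adjusted p of 0.184 after Benjamini-Hochberg adjustment in edgeR's quasi-likelihood test. Leaving out one library at a time moved the log2 fold change between 0.90 and 1.37, and the unadjusted p stayed under 0.05 each time.

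The lysosomal acid ceramidase ASAH1 (chr8:18055992-18084998) was at 53.5, 53.0 and 51.7 CPM in CTRL and at 64.5, 56.0 and 60.6 CPM in ODC at 24 h. These groups did not overlap, but the log2 fold change was 0.20 (95% interval -0.02 to 0.41, unadjusted p = 0.0668 in edgeR across all genes). ACER3 (chr11:76860859-77026797), an alkaline ceramidase of the endoplasmic reticulum and Golgi, was the single member with a value below 0, at 27.5 to 37.0 CPM in CTRL and 27.5 to 35.9 CPM in ODC (log2 fold change -0.12, 95% interval -0.48 to 0.25). ACER1, the epidermal alkaline ceramidase, had at most 1 count, and the neutral ceramidase ASAH2 had 3 to 17 counts in a library.

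UGCG (chr9:111896814-111935369), the first enzyme of glucosylceramide-based glycosphingolipids, was at 262, 305 and 266 CPM in CTRL and at 310, 306 and 308 CPM in ODC at 24 h. The lowest ODC library lay just above the highest CTRL library, and the log2 fold change was 0.15 (95% interval -0.06 to 0.36). SPHK1 (chr17:76376584-76387860) was at 115, 132 and 92.4 CPM in CTRL and at 124, 126 and 134 CPM in ODC, with overlap and a log2 fold change of 0.18 (95% interval -0.12 to 0.49). Counting non-overlapping groups, 6 of 10 members (CERS4, CERS5, SMPD1, ASAH1, ACER2 and UGCG) separated at 24 h, all with ODC higher, against 17.9% of all genes in either direction and 9.42% with ODC higher.

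**Figure D3:**
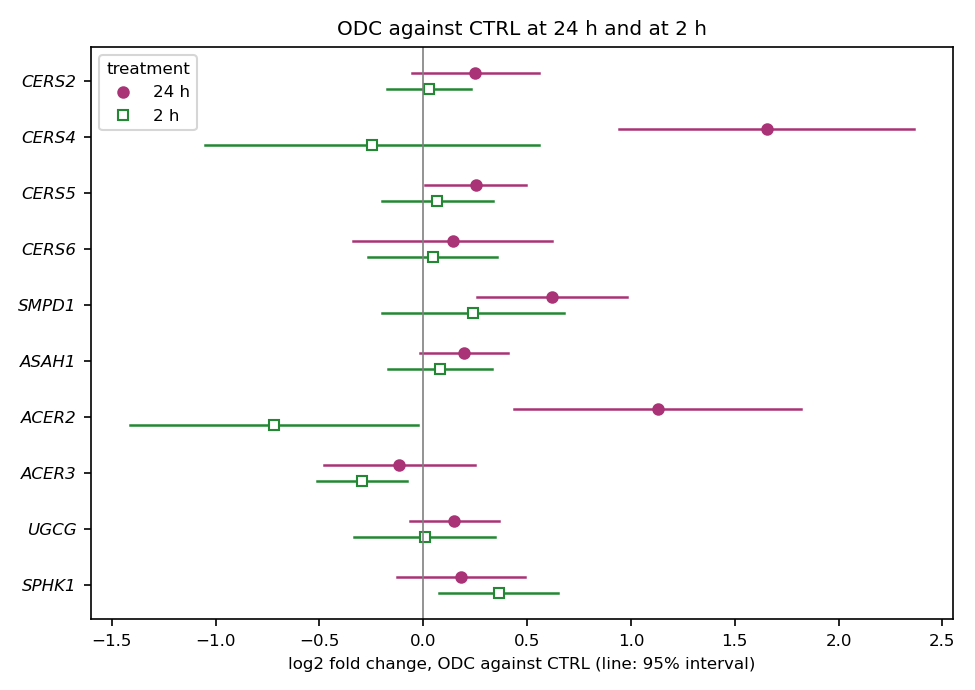
Log2 fold change of ODC against CTRL for the 10 members at 24 h (filled circles) and at 2 h (open squares), with 95% intervals of edgeR's quasi-likelihood fit as lines. The intervals of CERS4, SMPD1, ACER2 and CERS5 lie above 0 at 24 h, at 2 h those of ACER2 and ACER3 lie below 0 and that of SPHK1 above it.

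At 2 h the question was which of these genes differed early. ACER3 and ACER2, both for removing ceramide, were lower in all 3 ODC libraries, and SPHK1 was higher in all 3, while the values of CERS4 and SMPD1 overlapped between the arms. The other 2 tested ceramidases had log2 fold changes above 0 with overlapping groups: ASAH1 at 0.08 and ASAH2, with 3 to 17 counts in a library, at 1.23. No gene of the 13332 tested passed an adjusted p under 0.05 in edgeR's quasi-likelihood test (0% of all genes), whereas 312 (2.34%) had an unadjusted p under 0.05, and 5 genes passed the adjusted threshold in edgeR's likelihood ratio test and 1 in DESeq2, none of them a member. Of the members, 3 of 10 had an unadjusted p under 0.05 (1 higher and 2 lower in ODC, against 1.47% and 0.87% of all genes), and the same 3 were those whose groups did not overlap, against 15.3% of all genes without overlap. The median log2 fold change of the members was 0.04 and that of all genes -0.0060.

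ACER3 was at 59.9 and 58.0 CPM in CTRL replicates 1 and 2 and at 48.2, 46.3 and 49.5 CPM in ODC replicates 1 to 3 at 2 h. Both CTRL libraries lay above all ODC libraries, with a log2 fold change of -0.30 ± 0.09 (SE; 95% interval -0.51 to -0.08) and an unadjusted p of 0.0131 in edgeR across all genes. Without CTRL replicate 1 the log2 fold change was -0.27 and the unadjusted p 0.0553 in edgeR.

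ACER2 was at 2.01 and 1.83 CPM in CTRL and at 1.30, 1.33 and 0.863 CPM in ODC at 2 h, from 52 counts in each CTRL library and 25 to 41 counts in ODC. Its groups did not overlap, and its log2 fold change was -0.72 ± 0.30 (SE; 95% interval -1.41 to -0.03, unadjusted p = 0.0439 in edgeR across all genes). Leaving out any 1 of the ODC libraries took the unadjusted p over 0.05 in edgeR. Without CTRL replicate 1, which leaves 1 CTRL library, the log2 fold change was -0.65.

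SPHK1 was at 174 and 203 CPM in CTRL and at 276, 232 and 219 CPM in ODC at 2 h, ODC replicate 1 being the highest. Its log2 fold change was 0.36 ± 0.12 (SE; 95% interval 0.08 to 0.65, unadjusted p = 0.0192 in edgeR across all genes), and without CTRL replicate 1 it was 0.25 with an unadjusted p of 0.120. The adjusted p of all 3 genes was 1.00 after Benjamini-Hochberg adjustment in edgeR's quasi-likelihood test. Of the 3, SPHK1 shares exon positions with PRPSAP1 and ACER3 with a long non-coding RNA, both on the opposite strand. Reads of such partners cannot be told apart unless strand was used in counting, which is not given in the sources used here. The same holds for CERS2 (SETDB1), CERS6 (CERS6-AS1) and ASAH1 (ASAH1-AS1), whereas CERS4, CERS5, SMPD1, ACER2 and UGCG share no exon with another gene.

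The members that differed most at 24 h had other values at 2 h. CERS4 was at 1.39 and 0.988 CPM in CTRL and at 0.921, 0.809 and 1.28 CPM in ODC at 2 h, with a log2 fold change of -0.25 (95% interval -1.05 to 0.56), and of 0.018 without CTRL replicate 1. SMPD1 was at 44.2 and 32.4 CPM in CTRL and at 49.6, 35.4 and 50.3 CPM in ODC, with a log2 fold change of 0.24 (95% interval -0.20 to 0.68). That of SMPD1 rested on the CTRL libraries, at 0.48 (unadjusted p = 0.0509 in edgeR across all genes) without CTRL replicate 1 and 0.044 without CTRL replicate 2. The remaining members were close to 0 with overlapping groups: CERS2 at 0.03, CERS5 at 0.07, CERS6 at 0.05, ASAH1 at 0.08 and UGCG at 0.01 on the log2 scale, and the widest of their 95% intervals, that of UGCG, ran from -0.33 to 0.35. Without CTRL replicate 1 they were at -0.025, 0.037, -0.097, 0.14 and 0.040 in the same order.

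The effect at 24 h was then set against that at 2 h in 1 fit of all 11 libraries. The effect of ODC on ACER2 was higher at 24 h than at 2 h by 1.83 ± 0.43 (log2, SE; 95% interval 0.88 to 2.78), and that on CERS4 by 1.88 ± 0.45 (95% interval 0.90 to 2.87). Their unadjusted p-values were 0.00127 and 0.00138 and their adjusted p 0.490 each after Benjamini-Hochberg adjustment in edgeR's quasi-likelihood test. These were 2 of 10 members at an unadjusted p under 0.05, against 5.93% of 13333 genes, and no member passed the adjusted threshold, which 0.015% of all genes did. Without CTRL replicate 1 of 2 h the differences were 1.77 and 1.62. For SMPD1 the difference was 0.36 with a 95% interval from -0.20 to 0.93, and 0.13 without CTRL replicate 1 of 2 h, so an effect on SMPD1 at 24 h alone was not shown.

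Control levels also differed between the time points, whose libraries carry different months in their titles and were scaled separately, so that treatment time and month cannot be told apart. UGCG was at 112 to 117 CPM in CTRL at 2 h and at 262 to 305 CPM in CTRL at 24 h, a ratio of 2.43. SMPD1, ACER3, SPHK1 and CERS4 went the other way, with ratios of 0.530, 0.564, 0.599 and 0.648 and no overlap. CERS2 (0.848) and CERS5 (1.17) did not overlap either, while the CTRL ranges of CERS6, ASAH1 and ACER2 overlapped. SMPD1 in ODC at 24 h, at 25.9 to 36.2 CPM, overlapped its CTRL range of 32.4 to 44.2 CPM at 2 h.

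The members were also placed in a list of 65 genes of the wider ceramide pathway, of which 51 were tested at 24 h. At an unadjusted p under 0.05 there were 11 of 51 (21.6%, against 12.2% of all genes), 10 higher and 1 lower in ODC (7.20% and 5.04% of all genes). The list includes the 10 members, and without them there were 7 of 41. None passed an adjusted p under 0.05 in edgeR's quasi-likelihood test, while 7 did in the likelihood ratio test and 7 in DESeq2 (3.16% and 2.98% of all genes). The median log2 fold change of the list was 0.15, with 39 values above 0 and 12 below. In the breakdown of glycosphingolipids, which returns ceramide in the lysosome, 3 of 8 tested genes had an unadjusted p under 0.05 and all 3 were higher, and the median log2 fold change of the step was 0.26. They were GLA (alpha-galactosidase A, 68.2 ± 7.85 CPM in CTRL and 104.4 ± 14.2 in ODC), PSAP (prosaposin, the precursor of the saposins, 789 ± 97.6 and 1139 ± 130.2) and HEXA (a beta-hexosaminidase subunit, 139.8 ± 6.42 and 175 ± 14.9), each as mean ± SD with n = 3. Their log2 fold changes were 0.61, 0.53 and 0.32. GLA shares exon positions with RPL36A on the opposite strand. HEXA shares them with a protein-coding gene on its own strand and with long non-coding RNAs on the other, and PSAP with no other gene. The part of such partners in these values was not tested.

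At the start of the pathway, SPTLC3, a subunit of serine palmitoyltransferase, was the 1 list gene that was lower at an unadjusted p under 0.05, at 4.41 ± 0.936 CPM in CTRL and 2.01 ± 0.623 CPM in ODC (SD, n = 3 each; log2 fold change -1.13). The other 7 tested genes of sphingoid base synthesis had no unadjusted p under 0.05. B4GALNT1, which extends gangliosides downstream of UGCG, had the smallest p of the list. It was at 31.6 ± 2.76 CPM in CTRL and 57.9 ± 7.21 CPM in ODC (SD, n = 3 each). Its log2 fold change was 0.88, with an adjusted p of 0.0558 after Benjamini-Hochberg adjustment in edgeR's quasi-likelihood test. It shares exon positions with a protein-coding gene and a pseudogene on the opposite strand. At 2 h 5 of 53 tested list genes had an unadjusted p under 0.05 (9.43%, against 2.34% of all genes), and 3 of them were the members ACER2, ACER3 and SPHK1. Without the members there were 2 of 43: GAL3ST1, which makes sulfatide, at a log2 fold change of 0.39, and CPTP, a ceramide 1-phosphate transfer protein, at 0.34. Neither kept an unadjusted p under 0.05 without CTRL replicate 1 (log2 fold changes of 0.36 and 0.30).

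**Figure D4:**
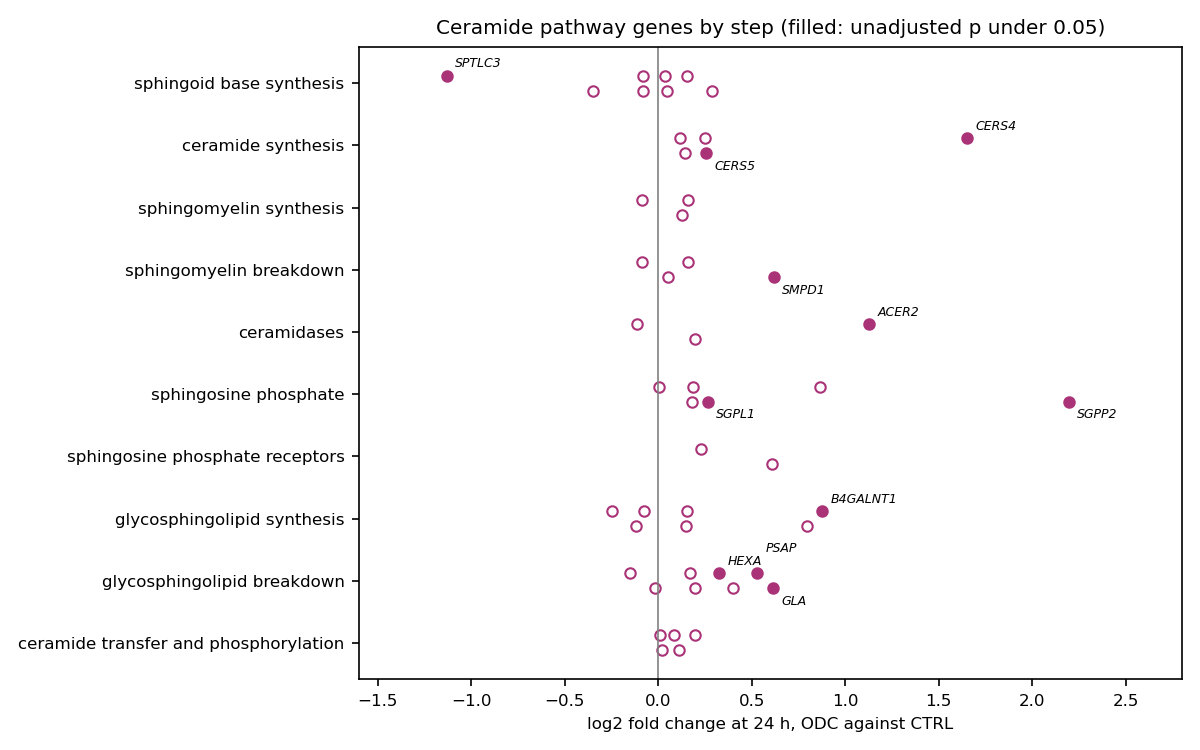
Log2 fold change of ODC against CTRL at 24 h for the 51 tested genes of the ceramide pathway list, one row per step, with genes at an unadjusted p under 0.05 filled and named. Filled points lie to the right of 0 except SPTLC3 at -1.13, and the breakdown of glycosphingolipids holds 3 of them.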

How the data were processed

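RNA of Caki-1-SR cells was converted to stranded poly(A) libraries and sequenced as single-end reads. Per the submitters' processing notes, reads were aligned to hg38 with STAR 2.7.0f and counted per gene with HTSeq 0.9.1, and edgeR 3.26.8 was named. The annotation and strand setting of counting are not given in the sources used here. The deposited values were the authors' unnormalized counts of reads per gene, in 1 table per time point. Samples were grouped by the treatment label, and replicates were numbered within a group.

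From the counts, differences were tested with edgeR 4.0.16 (quasi-likelihood F test, TMM scaling, filterByExpr at its count minimum of 10 and total minimum of 15, Benjamini-Hochberg adjustment over all genes tested, threshold 0.05), in separate fits at 24 h and 2 h and in 1 fit of 11 libraries for the difference between them. The labels number no pairs of CTRL and ODC libraries, so no block was used. Levels are TMM-scaled CPM within a time point. Shares of ceramide synthases were compared with exact permutation tests (SciPy 1.17.1). Alternatives were other scalings and filters, DESeq2 1.42.0, edgeR's other tests and leaving out each library. The fits were tested on simulated data. Positions and exon lengths came from GENCODE on hg38, promoters from RefSeq on GRCh38.p14. Some items of the lists are not reported here. Replicates of a group differed by more than sampling noise.

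The members and lists were chosen with earlier results of these data known. Named beyond the members were list genes with an adjusted p under 0.05, the 8 with the smallest unadjusted p under 0.05 in each comparison, synthases, ceramidases and sphingomyelinases at or under 3 counts in each library of a group, and SMPD4. ASAH2, SGPL1, SGPP2 and the antisense partners were named after their values were seen. Depth of 17785229 to 31118349 counts per library leaves CERS4 with 11 to 56 counts and ACER2 with 25 to 135 counts, so their values carry more counting error than those of other members.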

Additional observations from a re-analysis of the deposited data

Results flagged for a closer look

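The effect of ODC differed between 24 h and 2 h at an unadjusted p under 0.05 for 7 of the 53 tested genes of the ceramide list (13.2%, against 5.93% of all genes), by edgeR's quasi-likelihood test of the difference itself, and none passed the adjusted threshold there. Without the 10 members there were 5 of 43. ACER2 differed by 1.83 (log2), with effects of 1.13 at 24 h and -0.72 at 2 h. CERS4 differed by 1.88, with effects of 1.65 and -0.25. Both kept an unadjusted p under 0.05 in every alternative that kept both CTRL libraries of 2 h. Over all 20 alternatives the log2 ranges were 1.61 to 2.07 for ACER2 and 1.62 to 2.10 for CERS4.

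Of the other genes, B4GALNT1 differed by 0.73, GLA by 0.64, PSAP by 0.38 and ORMDL2, a regulator of serine palmitoyltransferase, by 0.45, all with a larger effect at 24 h. SPTLC3 differed by -1.10, with effects of -1.13 at 24 h and -0.05 at 2 h. For B4GALNT1, GLA and SPTLC3 the unadjusted p stayed under 0.05 in every alternative that kept both CTRL libraries of 2 h. For PSAP and ORMDL2 it rose over 0.05 on leaving out some of the other libraries. The difference of ORMDL2 was 0.28 without CTRL replicate 1 of 2 h. The month in the library titles changed with treatment time, so these cannot be told apart.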

How the results depend on the processing

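Single genes kept direction and side of the adjusted threshold in 944 of 984 alternative values, 24 passed it, and 16 changed sign. List genes with an adjusted p under 0.05 at 24 h, 0 in the reported fit, were 1 with every gene of at least 1 count, 7 with the likelihood ratio test, 7 with DESeq2 and 5 in the joint fit (92, 401, 378 and 186 of all genes), and 0 to 2 on leaving out a library. For the difference between time points there were 2 with the likelihood ratio test (0.278% of all genes). At 2 h, members with an unadjusted p under 0.05 went from 3 to 1 in the joint fit and list genes from 5 to 2, while the share of all genes went from 2.34% to 1.62%. On leaving out an ODC library of 2 h, 1 to 3 members had such a p. There was 1 without ODC replicate 1 (2.27% of all genes) and 3 without ODC replicate 2 (2.66%), and the share of all genes was 1.33% without ODC replicate 3. Leaving out a CTRL library of 2 h leaves 1 CTRL library, so counts of genes called in those fits are not given. The 984 values above include them. On leaving out a library, list genes with an unadjusted p under 0.05 ran from 8 to 17 at 24 h (17 without ODC replicate 3, against 11, while the share of all genes went from 12.2% to 15.6%, and was 6.98% without CTRL replicate 1). For the difference, the alternatives that kept every library gave 7 to 8 such list genes, against 7 in the reported fit, with 4.87% to 5.96% of all genes. On leaving out a library the log2 fold change of these genes, none called, crossed 0: at 24 h SMPD4 (-0.0083 to 0.10) and CERS6 (-0.13 to 0.28), at 2 h CERS2 (-0.025 to 0.096), CERS4 (-0.46 to 0.018), CERS5 (-0.0070 to 0.12), CERS6 (-0.097 to 0.22), UGCG (-0.16 to 0.11), SMPD4 (-0.044 to 0.080) and SPTLC3 (-0.14 to 0.062), and for the difference CERS6 (-0.19 to 0.23) and SMPD4 (-0.045 to 0.084). The CERS4 share difference at 2 h, -0.061 percentage points, ran from -0.13 to 0.0081.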

Other observations

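Other steps of sphingolipid metabolism gave the following values at 24 h. All 6 tested genes of the sphingosine phosphate step, which includes SPHK1, had a log2 fold change above 0 (50.1% of all genes). That of SGPP1 was close to 0, at 0.0064. SGPL1, the lyase that ends the pathway, and SGPP2, a sphingosine phosphate phosphatase, had an unadjusted p under 0.05 in edgeR (12.2% of all genes). SGPP2 was at 0.514 ± 0.321 CPM in CTRL and 2.36 ± 1.89 CPM in ODC (SD, n = 3 each), with overlapping groups, and SGPL1 at 120.1 ± 14.4 and 144 ± 5.40 CPM without overlap. All 5 tested genes of ceramide transfer and phosphorylation were above 0, at a median of 0.08, but none had an unadjusted p under 0.05. Of these, CERK (0.0066) and PLEKHA8 (0.020) were close to 0. Of the 3 tested genes listed under sphingomyelin synthesis none had an unadjusted p under 0.05, at a median of 0.13. These steps, SGPP2 and SGPL1 were picked after their values were seen.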
